A study of Rattus norvegicus with 304 samples.

Results

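Cyp1a2, 1 of 50 genes assayed by quantitative PCR in rat liver, was followed over the TCDD doses and times of the study. It was found by its gene symbol, which gave 36 of the 1759 deposited values on the OpenArray, a plate on which assays are dried into nanolitre wells, and 36 of the 1398 on the 7900HT, an instrument for real-time PCR in ordinary plates. The animals were male Long-Evans rats, a strain sensitive to TCDD, and male Han/Wistar rats, a resistant strain, all 10 to 12 weeks old and dosed once by oral gavage with TCDD or with the corn oil vehicle alone. The dose arm was collected at 19 h: Long-Evans rats received 0.001, 0.01, 0.1, 1, 10, 50, 100 or 1000 µg/kg TCDD and Han/Wistar rats 0.001, 0.01, 0.1, 1, 10, 100, 1000 or 3000 µg/kg, each strain with corn oil rats at 19 h. The time arm used 100 µg/kg TCDD at 3, 6, 10, 19, 96 and 240 h in Long-Evans, with corn oil at 19, 96 and 240 h. In Han/Wistar the times were 1.5, 3, 6, 10, 19, 96, 240 and 384 h, with corn oil at 1.5, 19, 96, 240 and 384 h. A group held 3 to 7 animals, in 36 groups per platform (150 samples on the OpenArray and 154 on the 7900HT), and 150 sample titles were the same on both, so the platforms are not independent.

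Cyp1a2 encodes a cytochrome P450 that hepatocytes make without any inducer and that oxidises caffeine, arylamines and oestrogens. TCDD, a dioxin, binds the aryl hydrocarbon receptor (AHR), which pairs with ARNT in the nucleus, binds short DNA elements with the core GCGTG and raises transcription of Cyp1a1, Cyp1a2, Cyp1b1 and other genes of foreign-compound metabolism. Cyp1a1 is nearly silent in untreated liver, whereas Cyp1a2 starts from a substantial basal level. In mice the CYP1A2 protein also binds TCDD and holds it in the liver. Han/Wistar rats carry an AHR with an altered transactivation domain.

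Cyp1a2 (gene ID 24297) lies on chromosome 8 beside Cyp1a1 in the RefSeq gene table for GRCr8, with no other listed gene between their starts. Its promoter, the 250 bases before the annotated start, is shown with that of Cyp1b1, the family member whose OpenArray values followed those of Cyp1a2 most closely (given at the end). Both are written 5′ to 3′ on the gene's strand, from RefSeq on GRCr8, at chr8:66978150-66978399 on the minus strand for Cyp1a2 and chr6:21094315-21094564 on the plus strand for Cyp1b1. Capitals mark matches to the AHR core GCGTG, searched on both strands, and to TATAAA, searched on the gene's strand. No match to one motif overlapped the other.
Cyp1a2: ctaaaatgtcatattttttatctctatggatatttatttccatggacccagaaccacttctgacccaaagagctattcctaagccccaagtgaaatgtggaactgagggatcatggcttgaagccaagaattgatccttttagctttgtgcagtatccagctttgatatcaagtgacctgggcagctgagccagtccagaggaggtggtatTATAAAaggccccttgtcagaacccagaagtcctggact
Cyp1b1: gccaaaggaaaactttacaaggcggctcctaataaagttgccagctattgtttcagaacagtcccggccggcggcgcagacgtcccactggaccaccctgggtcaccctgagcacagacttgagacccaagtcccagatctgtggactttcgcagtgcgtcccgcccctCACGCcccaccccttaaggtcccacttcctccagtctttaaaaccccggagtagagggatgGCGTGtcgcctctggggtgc
The Cyp1a2 window held 0 matches to GCGTG and 1 to TATAAA, which began at position -39 from the start. The Cyp1b1 window held 2 matches to GCGTG, at positions -81 (other strand) and -20 (gene strand), and 0 to TATAAA. Of all 33469 RefSeq promoter windows of this length, 25.9% held GCGTG and 8.06% held TATAAA. A match is only a match of letters, and elements farther from the start were not searched.

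The authors' deposited table of each platform gives 1 value per gene and group, read here as a log2 ratio to the 19 h corn oil group of its strain, although no header states the log base. All levels below are such ratios, so a basal level cannot be compared between strains, platforms or genes, and the spread between animals is unknown. Groups were the units of every test, and p-values measure only the spread between groups. Of 10 hepatocyte markers 4 were assayed and of 17 markers of other liver cells 0, so ratios could not be used to check the tissue, and fewer cells of a type cannot be told apart from less RNA per cell. The corn oil groups of all times are the background, with that at 19 h fixed at 0 as the reference. Their Cyp1a2 values ran from 0.00 to 0.32 in Long-Evans and from -0.84 to 0.00 in Han/Wistar on the OpenArray by the authors' deposited table. On the 7900HT they ran from -1.07 to 0.00 in Long-Evans and from -2.98 to 2.31 in Han/Wistar by the authors' deposited table. The SD over corn oil groups, the fixed 0 at 19 h included, was 0.16 in Long-Evans (n = 3) and 0.33 in Han/Wistar (n = 5) on the OpenArray. It was 0.55 in Long-Evans and 2.11 in Han/Wistar on the 7900HT, so of the 4 backgrounds that of Han/Wistar on the 7900HT was the widest. The median over all targets also moved between groups, from -0.17 to 0.91 in Long-Evans and from -0.35 to 0.44 in Han/Wistar on the OpenArray. On the 7900HT it moved from -2.27 to 1.08 in Long-Evans and from -1.59 to 0.63 in Han/Wistar.

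The dose arm asks from which dose, and how far, a target responds at 19 h. Some Cyp1a2 wells of the OpenArray raw table hold low whole-number cycle values, and their part in the deposited OpenArray values was not tested. On the OpenArray, Cyp1a2 was near the corn oil level at 0.001 and 0.01 µg/kg, stood above 2-fold at 0.1 µg/kg and at 2.44 log2 units or more from 1 µg/kg upward, in both strains. In Long-Evans the authors' deposited table gives Cyp1a2 at -0.24 for 0.001 µg/kg, -0.21 for 0.01 µg/kg, 1.13 for 0.1 µg/kg, 3.15 for 1 µg/kg, 3.72 for 10 µg/kg, 3.38 for 50 µg/kg, 3.88 for 100 µg/kg and 3.10 for 1000 µg/kg. In Han/Wistar the authors' deposited table gives -0.23 for 0.001 µg/kg, -0.05 for 0.01 µg/kg, 1.26 for 0.1 µg/kg, 2.82 for 1 µg/kg, 2.92 for 10 µg/kg, 4.30 for 100 µg/kg, 3.19 for 1000 µg/kg and 2.44 for 3000 µg/kg. In each strain the 6 groups from 0.1 µg/kg upward lay above every corn oil group of that strain, and the 2 lowest doses did not. The same count over the other targets is not given here, so this separation is not shown to be particular to Cyp1a2.

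**Figure D1:**
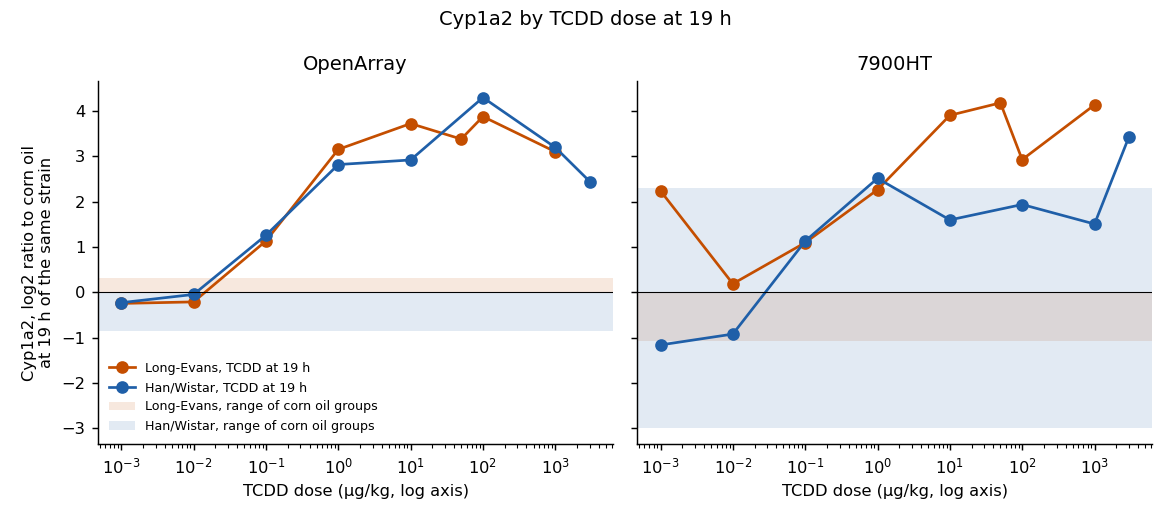
Cyp1a2 at 19 h by TCDD dose (µg/kg, log axis) as the deposited log2 ratio to the 19 h corn oil group of its strain, with the OpenArray at left and the 7900HT at right. Each point is 1 group (Long-Evans orange, Han/Wistar blue) and bands span the corn oil groups of all times. On the OpenArray the 6 points from 0.1 µg/kg upward lie above the bands in each strain; on the 7900HT 8 Long-Evans points lie above their band, against 2 in Han/Wistar.

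As linear folds over corn oil at 19 h, Cyp1a2 was 2.19-fold higher for 0.1 µg/kg and 14.7-fold higher for 100 µg/kg in Long-Evans, computed from the authors' deposited table. Han/Wistar rats showed it 2.39-fold higher for 0.1 µg/kg and 19.6-fold higher for 100 µg/kg by the same table. Spearman's rho of the deposited value against log10 dose was 0.74 in Long-Evans (8 groups, two-sided exact permutation p = 0.0458, Benjamini-Hochberg adjusted 0.0548) and 0.74 in Han/Wistar (8 groups, exact permutation p = 0.0458, adjusted 0.0642). The rank trend of Cyp1a2 therefore missed the 0.05 threshold in both strains, where 39 of 49 targets (79.6%) and 29 of 49 (59.2%) passed it in either direction. Pearson's r was 0.89 in Long-Evans (exact permutation p = 0.0032, adjusted 0.0060) and 0.83 in Han/Wistar (exact permutation p = 0.0139, adjusted 0.0257), so a straight-line trend passed. By that measure 45 of 49 targets passed in Long-Evans and 32 of 49 in Han/Wistar, so the pass is not particular to Cyp1a2. The ranks were lowered by the top dose: without 1000 µg/kg in Long-Evans the rho was 0.96 (adjusted exact permutation p = 0.0097), and without 3000 µg/kg in Han/Wistar it was 0.96 (adjusted exact permutation p = 0.0136). Of the 8 omissions of a single dose per strain only 1, that of the top dose, passed, and it was singled out after its result was seen. The adjusted exact permutation p of the others reached 0.194 in Long-Evans and 0.215 in Han/Wistar. Without the top dose 38 of 49 targets passed in Long-Evans and 25 of 49 in Han/Wistar. Without the 2 doses farthest from the median, 0.001 and the top dose, Long-Evans had a rho of 0.94 and an r of 0.94, and Han/Wistar 0.94 and 0.88, over 6 groups.

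From 1 µg/kg upward the 5 Long-Evans groups spanned 0.78 log2 units for Cyp1a2, and the 5 Han/Wistar groups spanned 1.85. The group at 100 µg/kg was the highest of the 5 in each strain. The top dose was lower than 100 µg/kg by 0.78 log2 units in Long-Evans (difference -0.78, 1000 minus 100 µg/kg) and by 1.85 in Han/Wistar (difference -1.85, 3000 minus 100 µg/kg), with 1 group each and no test. Cyp1a1, the neighbouring P450 gene, differed by -0.30 and -0.28 between the same groups. On the 7900HT the same differences for Cyp1a2 were 1.21 in Long-Evans and 1.50 in Han/Wistar, so the lower value at the top dose was not seen on that platform.

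Each level can also be set as a percent of the same gene's level at 100 µg/kg and 19 h, and every percent then shares that 1 group. The percent still holds the basal level, since the 19 h corn oil group was itself at 6.81% in Long-Evans livers and at 5.09% in Han/Wistar livers for Cyp1a2, against 0.14% and 0.099% for Cyp1a1. Genes are therefore set side by side here by the share of the rise, in which the 19 h corn oil level is taken off both levels. On the OpenArray, Cyp1a2 reached 8.73% of its rise for 0.1 µg/kg, 57.7% for 1 µg/kg and 89.1% for 10 µg/kg in Long-Evans. Han/Wistar shares for Cyp1a2 were 7.48% for 0.1 µg/kg, 32.5% for 1 µg/kg and 35.2% for 10 µg/kg. Cyp1a1, a hydroxylase of aromatic hydrocarbons, had reached 12.2% (Long-Evans) and 12.7% (Han/Wistar) for 0.1 µg/kg, with 57.2% and 69.3% for 1 µg/kg. At 1 µg/kg the shares of Cyp1a2 and Cyp1a1 lay side by side in Long-Evans, and that of Cyp1a2 was the lower in Han/Wistar. These shares rest on 1 group each, were chosen after the values were seen and were not tested.

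On the log2 scale each gene was also set against its own midpoint. The genes reached different heights, and a log2 midpoint is a smaller part of the linear rise the higher a gene reaches. In Long-Evans on the OpenArray it was 1.94 for Cyp1a2 and 4.73 for Cyp1a1, so midpoint doses of genes of unlike height are not on one scale. As OpenArray shares of the linear rise at 1 µg/kg, Cyp1a2 and Cyp1a1 stood at 57.7% and 57.2% in Long-Evans and at 32.5% and 69.3% in Han/Wistar. Interpolated on log10 dose on the OpenArray, Cyp1a2 passed the midpoint between 0 and its own value at 100 µg/kg at 0.250 µg/kg in Long-Evans and 0.371 µg/kg in Han/Wistar. Cyp1a1 passed its midpoint at 0.0463 and 0.0401 µg/kg, and Cyp1b1, an oestrogen-hydroxylating P450 found mainly outside the liver, at 1.94 and 1.78 µg/kg. Nqo1, a quinone reductase, passed at 0.322 and 0.483 µg/kg, the closest to Cyp1a2 of these genes on the OpenArray. The 7900HT did not give this order. There Han/Wistar passed at 0.083 µg/kg for Cyp1a2, 0.035 for Cyp1a1, 16.2 for Cyp1b1 and 33.5 for Nqo1, the farthest from Cyp1a2. In Long-Evans on the 7900HT Cyp1a2 was above its midpoint at 0.001 µg/kg already, so no dose could be interpolated. Among all OpenArray targets at 0.1 µg/kg, Cyp1a2 ranked 4 of 49 in Long-Evans, after Cyp1a1, Ahrr and Nqo1, and 3 of 48 in Han/Wistar, after Cyp1a1 and Cyp1b1. At 100 µg/kg it ranked 6 of 49 in both strains.

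On the 7900HT the dose pattern was less even. In Long-Evans the authors' deposited table gives Cyp1a2 at 2.24 for 0.001 µg/kg, 0.19 for 0.01 µg/kg, 1.10 for 0.1 µg/kg, 2.26 for 1 µg/kg, 3.90 for 10 µg/kg, 4.18 for 50 µg/kg, 2.93 for 100 µg/kg and 4.13 for 1000 µg/kg. All 8 groups lay above the Long-Evans corn oil groups, a count not given here for other targets. The group at 0.001 µg/kg stood level with that at 1 µg/kg. In Han/Wistar the authors' deposited table gives -1.16 for 0.001 µg/kg, -0.92 for 0.01 µg/kg, 1.13 for 0.1 µg/kg, 2.51 for 1 µg/kg, 1.60 for 10 µg/kg, 1.94 for 100 µg/kg, 1.51 for 1000 µg/kg and 3.43 for 3000 µg/kg. Only the groups at 1 and 3000 µg/kg lay above every Han/Wistar corn oil group, whose highest was the one at 1.5 h. The rho was 0.81 in Long-Evans (exact permutation p = 0.0218, adjusted 0.283) and 0.79 in Han/Wistar (exact permutation p = 0.0279, adjusted 0.136), over 8 groups each. Pearson's r was 0.78 in Long-Evans (exact permutation p = 0.0257, adjusted 0.200) and 0.84 in Han/Wistar (exact permutation p = 0.0097, adjusted 0.0630). Without the 2 doses farthest from the median Long-Evans had a rho of 0.83 and an r of 0.91, and Han/Wistar 0.49 and 0.62. In these dose trends 0 of 39 targets (0%) passed the exact permutation test after Benjamini-Hochberg adjustment in Long-Evans, with 5 at an unadjusted p under 0.05, and 1 of 39 (2.56%) passed in Han/Wistar, with 10 unadjusted. When each group was centred on the median of the targets that have 4 rows per gene in the 7900HT raw table, as Cyp1a2 has, the rho turned to -0.24 in Long-Evans and -0.52 in Han/Wistar. Of the 14 targets in that set 12 are Cyp1a2, Ahr, Arnt or genes of the AHR list, and the cause of the change was not tested.

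The other genes of the AHR pathway came from a list of 16, of which 11 were measured on each platform. On the OpenArray 8 of the 11 rose with dose and 3 fell in Long-Evans, against 53.1% and 26.5% of all 49 targets, and 6 rose and 3 fell in Han/Wistar, against 38.8% and 20.4% (exact permutation test of the rho, Benjamini-Hochberg adjusted). With centring on the group mean 7 rose and 3 fell in Long-Evans, and 5 rose and 3 fell in Han/Wistar. Under that centring 29 of all 49 targets passed in Long-Evans and 28 in Han/Wistar, in either direction. The median rho of the list was 0.88 in Long-Evans and 0.86 in Han/Wistar, beside 0.79 and 0.64 over all targets. Cyp1a1 rose in Long-Evans (rho 0.93 with an adjusted exact permutation p of 0.0068) and in Han/Wistar (rho 0.90 with an adjusted exact permutation p of 0.0160), and the Han/Wistar call was lost with centring on the group mean or median. Tiparp, which encodes a feedback repressor of AHR, rose with a rho of 0.95 (Long-Evans) and 0.88 (Han/Wistar). The members that fell in both strains were Ugt1a1, Fmo1 and Inmt, enzymes of bilirubin conjugation, amine oxidation and indolamine methylation. The receptor gene Ahr rose in Long-Evans (rho 0.76, adjusted exact permutation p = 0.0462), but its sign was reversed with centring on the group mean (-0.76), and in Han/Wistar it missed the threshold (rho 0.57, adjusted exact permutation p = 0.168). On the 7900HT 0 of the 11 passed in Long-Evans and 1, Cyp1b1, rose in Han/Wistar.

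The time arm asks when after 100 µg/kg TCDD a target moves and how long it stays moved. On the OpenArray, Cyp1a2 stood higher at 19 h than at any earlier time, was highest at 96 h in both strains and was still well above corn oil at 240 h, and in Han/Wistar at 384 h. In Long-Evans the authors' deposited table gives Cyp1a2 at 1.81 after 3 h, 2.33 after 6 h, 2.81 after 10 h, 3.88 after 19 h, 4.32 after 96 h and 2.90 after 240 h of TCDD, against corn oil at 0 after 19 h, 0.32 after 96 h and 0.14 after 240 h. In Han/Wistar the authors' deposited table gives -0.16 after 1.5 h, 1.16 after 3 h, 2.44 after 6 h, 1.84 after 10 h, 4.30 after 19 h, 5.10 after 96 h, 3.83 after 240 h and 4.97 after 384 h of TCDD. The Han/Wistar corn oil groups stood at -0.71 after 1.5 h, 0 after 19 h, -0.53 after 96 h, -0.69 after 240 h and -0.84 after 384 h by the authors' deposited table. All 6 TCDD groups of Long-Evans lay above every corn oil group, which held for 25 of 49 targets (51%). In Han/Wistar 7 of 8 did, and the group at 1.5 h lay within the corn oil range. All 8 lay above every corn oil group for 5 of 47 targets (10.6%) in that strain.

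**Figure D2:**
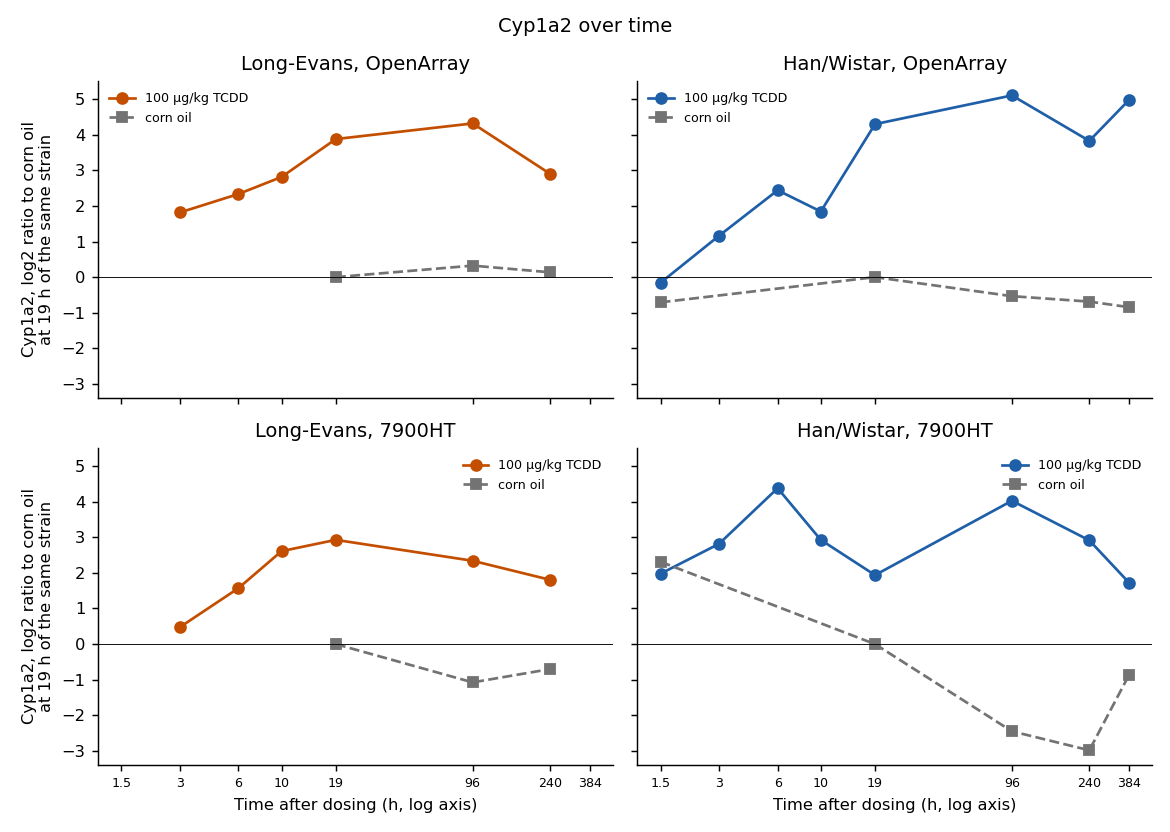
Cyp1a2 after 100 µg/kg TCDD (circles) and corn oil (squares) by time (h, log axis), as the deposited log2 ratio to the 19 h corn oil group of its strain. Each point is 1 group, with Long-Evans at left, Han/Wistar at right, the OpenArray above and the 7900HT below. On the OpenArray the highest TCDD group is that at 96 h, 4.32 in Long-Evans and 5.10 in Han/Wistar.

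The mean of the TCDD groups was 2.86 log2 units above the mean of the corn oil groups in Long-Evans (6 and 3 groups, two-sided exact permutation p = 0.0119, the smallest that 84 splits allow, Benjamini-Hochberg adjusted 0.0365). In Han/Wistar it was 3.49 above (8 and 5 groups, exact permutation p = 0.0039, adjusted 0.0146). Cyp1a2 rose by this test in both strains. In Long-Evans 16 of 49 targets passed (32.7%), of which 15 rose (30.6%), and in Han/Wistar 27 of 49 passed (55.1%), of which 26 rose (53.1%). Centring made the Cyp1a2 differences smaller, and both calls held. They were 1.85 (Long-Evans) and 2.46 (Han/Wistar) with centring on the group mean, and 2.30 and 3.05 with centring on the median. The Long-Evans call was lost when any of the 3 corn oil groups, or the TCDD group at 6, 10, 19 or 96 h, was left out. Over the 9 groups left out in turn the difference ran from 2.59 to 3.09 and the adjusted exact permutation p reached 0.109, with fewer splits remaining. The Han/Wistar call held without any single group. Using medians of the groups in place of means ended both calls (2.72, adjusted exact permutation p = 0.175 in Long-Evans, and 3.82, adjusted exact permutation p = 0.172 in Han/Wistar). With medians 0 of 49 Long-Evans targets passed, so in that strain the setting cannot tell Cyp1a2 from other targets. With only the times that have corn oil, 3 TCDD and 3 corn oil groups remained in Long-Evans, and the smallest possible exact permutation p was 0.1. The difference was then 3.54 (exact permutation p = 0.1, adjusted 0.129) and 0 of 49 targets passed, so this setting cannot test the call.

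Set against corn oil of the same time, Cyp1a2 was 14.7-fold higher after 19 h, 15.9-fold after 96 h and 6.80-fold after 240 h in Long-Evans on the OpenArray, from the authors' deposited table. Cyp1a2 in Han/Wistar livers was 1.46-fold higher after 1.5 h, 19.6-fold after 19 h, 49.7-fold after 96 h, 22.8-fold after 240 h and 56.4-fold after 384 h by the same table. The Han/Wistar folds from 96 h on are larger than those against corn oil at 19 h because the later corn oil groups were below 0. At 384 h, the latest time sampled, the fold was above that at 19 h.

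As a share of the rise reached at 19 h, with the 19 h corn oil level taken off, Cyp1a2 lay below Cyp1a1 and above Cyp1b1 at 3, 6 and 10 h in both strains on the OpenArray. In Long-Evans Cyp1a2 had made 18.4% of its rise after 3 h, 29.5% after 6 h and 44% after 10 h. Cyp1a1 had made 32.4%, 77.9% and 85.4% at these times, and Cyp1b1 0.77%, 2.06% and 7.36%. In Han/Wistar Cyp1a2 stood below its 19 h corn oil level after 1.5 h (-0.56%) and had made 6.64% after 3 h, 23.7% after 6 h and 13.9% after 10 h. Cyp1a1 had made 4.81%, 35.5%, 98.5% and 65.0% at these times, and Cyp1b1 0.21%, 1.48%, 2.30% and 5.68%. Cyp1a2 thus had the lowest share of the 3 genes at 1.5 h, but these shares do not take off the 1.5 h corn oil level. Against corn oil of 1.5 h, Cyp1a2 was 0.55 log2 units higher and Cyp1a1 2.16, with Cyp1a1 in that corn oil group itself at 3.47. Each share rests on 1 group per time, with no test.

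The 7900HT gave this order at some times only. In Long-Evans the shares for Cyp1a2 were 5.92% after 3 h, 29.8% after 6 h and 77.3% after 10 h, against 182%, 372% and 572% for Cyp1a1. Cyp1b1 stood there at -20.4%, -6.48% and 182%, so after 10 h Cyp1a2 was the lowest of the 3. In Han/Wistar the shares for Cyp1a2 were 104% after 1.5 h, 214% after 3 h, 699% after 6 h and 233% after 10 h, against 54.7%, 349%, 1303% and 70.9% for Cyp1a1. Cyp1a2 was thus above Cyp1a1 in these shares after 1.5 and 10 h, while Cyp1b1 lay between 1.74% and 13.1% at these 4 times. The 104% was not a rise over corn oil of the same time, since Cyp1a2 at 1.5 h stood at 2.31 with corn oil and 1.98 with TCDD. For Cyp1a1 the TCDD group lay 6.39 log2 units above corn oil of 1.5 h.

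**Figure D3:**
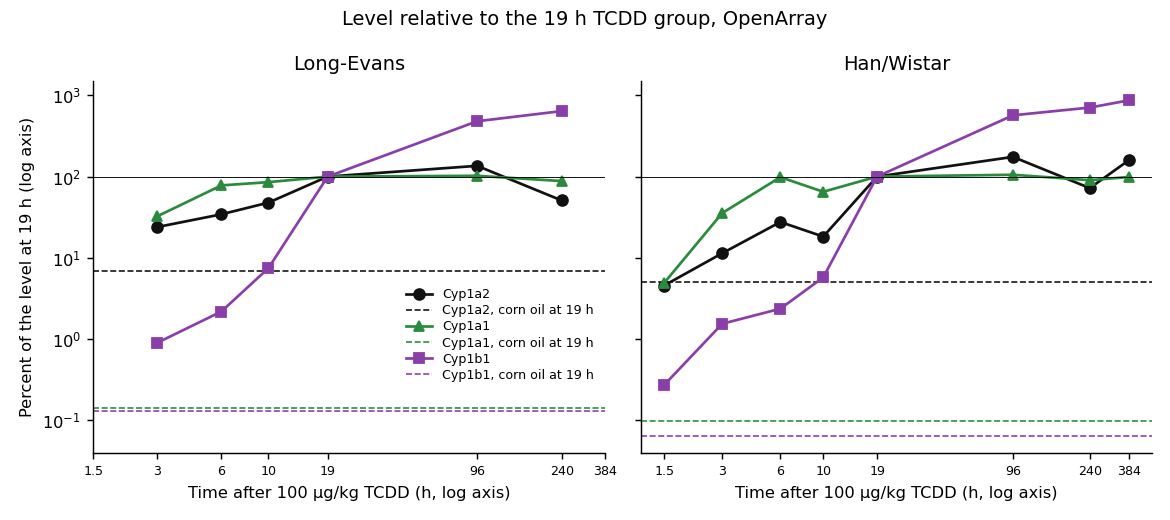
Level after 100 µg/kg TCDD as a percent of the same gene's level at 19 h (log axis) by time (h, log axis) on the OpenArray, with Long-Evans at left and Han/Wistar at right. Each point is 1 group for Cyp1a2 (black circles), Cyp1a1 (green triangles) or Cyp1b1 (purple squares). Dashed lines mark each gene's 19 h corn oil level, which for Cyp1a2 is 6.81% (Long-Evans) or 5.09% (Han/Wistar) and far lower for the other genes, so the curves do not start from one height. At 240 h Cyp1a2 lies below both other genes.

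Among the targets at least 2-fold up at 100 µg/kg and 19 h on the OpenArray, 18 in Long-Evans and 15 in Han/Wistar, the share of the rise made after 3 h was lower than that of Cyp1a2 for 5 in Long-Evans and 3 in Han/Wistar. The median share over the targets was 32.8% for Long-Evans and 40.4% for Han/Wistar. Cyp1b1 was among the lower ones in both strains. As a plain percent of the 19 h level, Cyp1a2 after 96 h was at 136% in Long-Evans livers and 175% in Han/Wistar livers. At 240 h it was at 50.9% in Long-Evans, the lowest percent of the 18 targets, whose median was 217%, and at 72.2% in Han/Wistar, the lowest of the 15, whose median was 128%. With the 19 h corn oil level taken off, 1 target was lower at 240 h in each strain. In Han/Wistar at 384 h Cyp1a2 was at 86.3% on the 7900HT and at 160% on the OpenArray. The Han/Wistar group at 3000 µg/kg and 19 h was also the lowest of the 15, at 27.7% beside a median of 92.8%. These targets were selected by the 19 h value that is the denominator, and the percents are a description. On the 7900HT the 240 h level was 46.0% of that at 19 h in Long-Evans, with 1 of 16 targets lower, and 197% in Han/Wistar, with 4 of 11 lower.

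On the 7900HT the TCDD groups were again mostly above corn oil, with a different course in Han/Wistar. In Long-Evans the authors' deposited table gives Cyp1a2 at 0.48 after 3 h, 1.57 after 6 h, 2.61 after 10 h, 2.93 after 19 h, 2.34 after 96 h and 1.80 after 240 h of TCDD, against corn oil at 0 after 19 h, -1.07 after 96 h and -0.70 after 240 h. All 6 TCDD groups lay above the 3 corn oil groups, as for 6 of 38 targets (15.8%). In Han/Wistar the authors' deposited table gives 1.98 after 1.5 h, 2.82 after 3 h, 4.38 after 6 h, 2.93 after 10 h, 1.94 after 19 h, 4.02 after 96 h, 2.91 after 240 h and 1.72 after 384 h of TCDD. The Han/Wistar corn oil groups stood at 2.31 after 1.5 h, 0 after 19 h, -2.45 after 96 h, -2.98 after 240 h and -0.87 after 384 h by the authors' deposited table. The corn oil group at 1.5 h lay above 3 of the 8 TCDD groups, those at 1.5, 19 and 384 h, and 2 of 38 targets (5.26%) had all 8 TCDD groups above all 5 corn oil groups.

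The mean difference was 2.55 in Long-Evans (exact permutation p = 0.0119, adjusted 0.0663), where 0 of 39 targets (0%) passed the exact permutation test after adjustment and 16 had an unadjusted p under 0.05. In Han/Wistar it was 3.63 (exact permutation p = 0.0031, adjusted 0.0242), where 14 of 39 targets passed (35.9%), of which 6, Cyp1a2 among them, rose (15.4%). That call was lost without the corn oil group at 19 h (3.83, adjusted exact permutation p = 0.0525) and without that at 240 h (3.09, adjusted exact permutation p = 0.0563). It was also lost with centring on the 4-row targets (1.26, adjusted exact permutation p = 0.0868), with medians of the groups (3.73, adjusted exact permutation p = 0.0505) and with only the times that have corn oil (3.31, adjusted exact permutation p = 0.0825). Against corn oil of the same time, the 7900HT differences for Cyp1a2 were 2.93 after 19 h, 3.41 after 96 h and 2.51 after 240 h in Long-Evans. In Han/Wistar they were -0.34 after 1.5 h, 1.94 after 19 h, 6.47 after 96 h, 5.89 after 240 h and 2.59 after 384 h.

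Of the 11 measured AHR pathway genes, 6 rose and 0 fell over the OpenArray time course in Long-Evans, against 30.6% and 2.04% of all targets, and 8 rose and 1 fell in Han/Wistar, against 53.1% and 2.04% (exact permutation test, Benjamini-Hochberg adjusted). With centring on the group mean 5 rose and 1, Ugt1a1, fell in Long-Evans, while 6 rose and 3, Ugt1a1, Fmo1 and Inmt, fell in Han/Wistar. Under that centring 29 of all 49 targets passed in Long-Evans, in either direction. The Han/Wistar count over all targets is not given here. The median shift of the list was 3.03 in Long-Evans and 2.63 in Han/Wistar, beside 0.63 and 0.58 over all targets. Cyp1a1 rose in both strains, by 8.19 (Long-Evans, adjusted exact permutation p = 0.0365) and 8.37 (Han/Wistar, adjusted exact permutation p = 0.0095). Nqo1 rose by 4.02 in Long-Evans and 3.32 in Han/Wistar, beside 2.86 and 3.49 for Cyp1a2. The member that fell in Han/Wistar was Inmt, by 3.15. Cyp1b1 rose by 7.12 in Han/Wistar and differed by 7.13 in Long-Evans, where it missed the threshold (adjusted exact permutation p = 0.0556). On the 7900HT 0 of the 11 passed in Long-Evans, and in Han/Wistar Cyp1a1, Cyp1b1 and Nqo1 rose and Inmt fell, against 15.4% and 20.5% of all targets, with the Nqo1 and Inmt calls lost on centring on the group median. Ahr was higher by 0.58 over the OpenArray time course in Han/Wistar (adjusted exact permutation p = 0.0281), a sign that turned to -0.44 with centring on the group mean. It missed the threshold in Long-Evans, and Ahr and Arnt missed it on the 7900HT. Of the calls made for the listed genes, Ahr alone turned its sign under any centring tried.

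The strains were compared by the difference, Long-Evans minus Han/Wistar, between groups of equal dose and time, each relative to its own corn oil at 19 h. On the OpenArray the Cyp1a2 difference over the 7 shared doses at 19 h was -0.02 for 0.001 µg/kg, -0.16 for 0.01 µg/kg, -0.13 for 0.1 µg/kg, 0.33 for 1 µg/kg, 0.80 for 10 µg/kg, -0.42 for 100 µg/kg and -0.09 for 1000 µg/kg, from the authors' deposited table. Long-Evans was higher at 2 doses and lower at 5, and the rho of the difference against log10 dose was -0.04 (7 groups, exact permutation p = 0.963, adjusted 1.0), and the linear r was 0.04 (exact permutation p = 0.944, adjusted 0.965). Without the 2 doses farthest from the median the rho was 0.00 and r 0.14. Over time the Cyp1a2 difference was 0.65 after 3 h, -0.11 after 6 h, 0.97 after 10 h, -0.42 after 19 h, -0.79 after 96 h and -0.92 after 240 h of TCDD, and the corn oil groups differed by 0.86 after 96 h and 0.82 after 240 h, from the authors' deposited table. The TCDD and corn oil differences had opposite signs at 96 and 240 h.

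The mean strain difference of the TCDD times minus that of the corn oil times was -0.66 on the OpenArray (6 and 3 groups, exact permutation p = 0.214, adjusted 0.528). After adjustment 0 of 48 targets (0%) passed the exact permutation test over doses and 0 of 49 (0%) over time, with 5 and 6 at an unadjusted p under 0.05. On the 7900HT the Cyp1a2 differences were wider, from -0.25 to 3.40 over doses and from -2.81 to 0.99 over time, with corn oil differences of 1.37 after 96 h and 2.28 after 240 h. The rho over doses was -0.07 (exact permutation p = 0.906, adjusted 0.906), the linear r was -0.01 (exact permutation p = 0.978, adjusted 0.994), and without the 2 doses farthest from the median they were 0.10 and 0.32. The mean difference over time was -2.43 (exact permutation p = 0.0476, adjusted 0.211). On the 7900HT 0 of 37 targets (0%) passed the exact permutation test over doses, with 0 at an unadjusted p under 0.05, and 0 of 39 (0%) over time, with 8 unadjusted. A p above the threshold does not show that the strains responded alike.

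**Figure D4:**
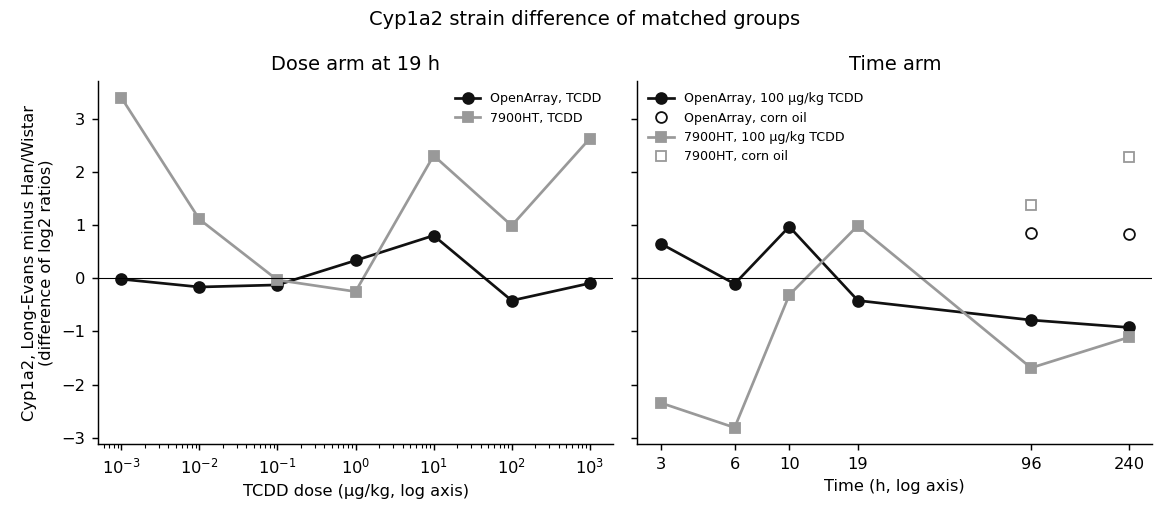
Cyp1a2 difference between strains, Long-Evans minus Han/Wistar between groups of equal dose and time (difference of log2 ratios), by TCDD dose at 19 h (left, µg/kg, log axis) and by time (right, h, log axis). Black is the OpenArray, grey the 7900HT, filled symbols are TCDD and open symbols corn oil. OpenArray points lie between -0.92 and 0.97, and 7900HT points between -2.81 and 3.40.

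The platforms were compared group by group for Cyp1a2, as 7900HT minus OpenArray. Of the 11 Long-Evans groups at 0.1 µg/kg or more, 11 were above 0 on both platforms, and 7 differed by less than 1 log2 unit, over a range from -1.98 to 1.03. Of the 13 such Han/Wistar groups 12 were above 0 on both, and 4 differed by less than 1 log2 unit, over a range from -3.25 to 2.13. The exception was the group at 1.5 h, at 1.98 on the 7900HT and -0.16 on the OpenArray by the authors' deposited table. Of the corn oil groups away from 19 h, 0 of 2 in Long-Evans and 3 of 4 in Han/Wistar had the same sign on both platforms. Cyp1a2 was assayed in 4 rows of the 7900HT raw table and 2 of the OpenArray raw table, and the part of this in the differences was not tested.

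**Figure D5:**
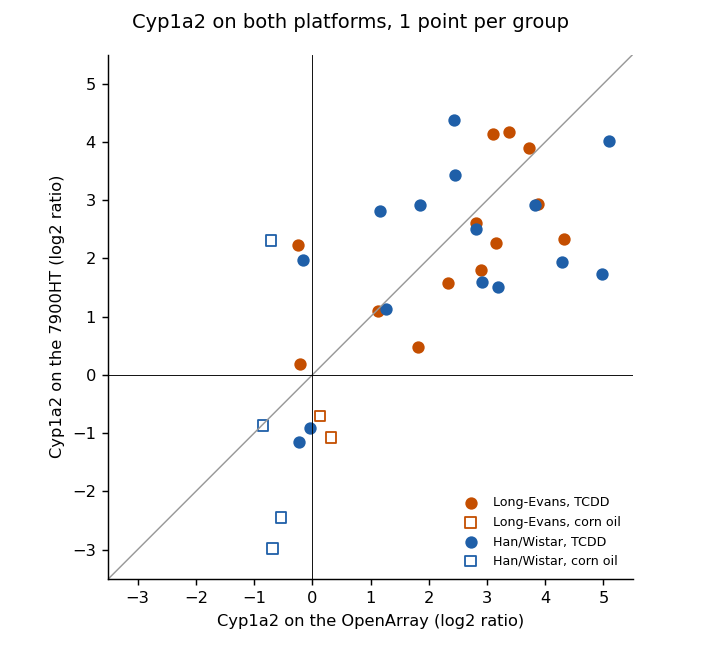
Cyp1a2 on the 7900HT (vertical axis) against the OpenArray (horizontal axis), both as deposited log2 ratios to the 19 h corn oil group of its strain. Each point is 1 group, with TCDD filled and corn oil open, Long-Evans orange and Han/Wistar blue; the diagonal marks equal values. TCDD groups at 0.1 µg/kg or more lie above 0 on both axes except the Han/Wistar group at 1.5 h.

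The targets whose deposited values were most like those of Cyp1a2 over the 28 TCDD groups of both strains were found by Pearson's r among targets with a value in each group. These groups share their corn oil zero and the series of doses and times, so r is a description only. On the OpenArray, among 46 targets, they were Cyp1b1 (r = 0.87), Mawbp (r = 0.85) and Cyp1a1 (r = 0.83). The mean absolute differences from Cyp1a2 were 4.46, 1.57 and 5.46 log2 units, so the likeness is one of shape and not of height. On the 7900HT, among 35 targets, they were Cyp1a1 (r = 0.87), Nqo1 (r = 0.80) and Aldh3a1 (r = 0.65), with mean absolute differences of 5.92, 1.27 and 2.80. Cyp1a1 was the only target among the nearest 3 on both platforms.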

How the data were processed

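Per the labels' protocols, total RNA of rat liver was turned into cDNA and measured by real-time PCR on both platforms. The deposited tables hold 1 value per gene, strain, time and dose, per the file headers, read as the log2 ratio that the authors computed against the 19 h corn oil group of its strain; the base is inferred. The sources used here do not give the authors' reference genes or averaging, and the depth behind a value is unknown. R 2.12.2 was used, per the submitters' processing notes. The 304 columns of raw cycle values carry animal codes that match 0 sample labels and were not used; some OpenArray Cyp1a2 wells among them hold low whole-number cycle values, and how the authors treated these is not given in the sources used here.

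Groups follow the labels' strain, treatment, dose and time. Each target was tested two-sided by exact permutation, dose trends by Spearman's rho (at least 6 groups) and time courses by TCDD mean minus corn oil mean, with Benjamini-Hochberg adjustment over all targets of a strain and platform at 0.05. Tests were checked on simulated data. Percent levels, shares of the rise and linear folds take log2 at full PCR efficiency. Named genes were Cyp1a2, Cyp1a1, Cyp1b1, the AHR list, Ahr, Arnt and the 3 targets most like Cyp1a2; Nqo1 and Aldh3a1 also appear where a likeness named them. The members and lists were chosen with earlier results of these data known. Computation used scipy 1.17.1, numpy 2.4.6 and pandas 2.3.3 in Python 3.11.15, and figures matplotlib 3.10.9.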

Additional observations from a re-analysis of the deposited data

How the results depend on the processing

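Of 58 comparisons of a result with another setting, 40 kept their direction and their side of the threshold, and of 108 that left out 1 group, 93 did. For the OpenArray dose trend, Pearson's r (0.89 in Long-Evans, 0.83 in Han/Wistar) and corn oil as the lowest dose (rho 0.77 in each strain) passed where the rank trend had not. With corn oil as the lowest dose 45 of 49 targets passed in Long-Evans and 37 in Han/Wistar. Centring on the group mean gave a rho of 0.64 in each strain. Centring on the median gave 0.64 in Long-Evans and 0.74 in Han/Wistar. No centred trend of Cyp1a2 passed. Leaving out 1 dose gave 0.61 to 0.96 in each strain, and passed only without the top dose. The OpenArray time shift lost its call with medians of the groups (2.72 in Long-Evans, where 0 of 49 targets passed, and 3.82 in Han/Wistar). With only the times that have corn oil it was 3.54 in Long-Evans, a setting with too few splits for any target to pass. Leaving out 1 group gave 2.59 to 3.09 in Long-Evans and 3.18 to 3.93 in Han/Wistar. On the 7900HT the dose trend reversed with centring on the 4-row targets (-0.24 in Long-Evans, -0.52 in Han/Wistar), and leaving out 1 dose gave 0.71 to 0.86 in Long-Evans and 0.68 to 0.89 in Han/Wistar. The 7900HT time shift in Long-Evans passed with centring on the group mean (1.74) or median (1.91), with 2.31 to 2.84 when 1 group was left out. In Han/Wistar it lost its call with centring on the 4-row targets (1.26), with medians of the groups (3.73) and with only the times that have corn oil (3.31), and ran from 3.09 to 4.41 when 1 group was left out. The strain difference over doses, near 0, reversed with Pearson's r on the OpenArray (0.036) and with centring on the mean (0.25), the median (0.18) or the 4-row targets (0.18) on the 7900HT. Leaving out 1 group gave -0.20 to 0.37 on the OpenArray, reversed without 0.001 µg/kg (0.14) or 100 µg/kg (0.37), and -0.37 to 0.49 on the 7900HT, reversed without 0.001 µg/kg (0.49) or 0.01 µg/kg (0.03). The strain difference over time ran from -0.94 to -0.50 on the OpenArray and from -3.04 to -1.90 on the 7900HT. Apart from the fewer splits left with fewer groups, the cause of these changes was not tested. No paired analysis was possible because 1 deposited value per group carries no replicate number.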
